A study of Mus musculus with 4 samples.

Results

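The cells described here are classical monocytes among CD45-positive leukocytes of transplanted mouse lungs, chosen on their own transcript counts. To be kept as a cell, a barcode needed 200 or more genes and no more than 10% of mitochondrial UMIs (unique molecular identifiers, each standing for 1 counted transcript). A cell counted as a classical monocyte when it had at least 1 UMI each of Ccr2 and Ly6c2 and at least 2 UMIs of F13a1, Vcan and Fn1 in sum. It also had to have at most 2 UMIs of Ace, Adgre4 and Cd300e, fewer than 5 of C1qa, C1qb and C1qc, under 1% of its UMIs in S100a8 and S100a9, and 0 of Cd3e, Cd79a and Ncr1. This rule was met by 1012 of 24291 cells.

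Classical monocytes are blood phagocytes that leave the bone marrow by way of the chemokine receptor Ccr2 and carry the surface antigen Ly6C in mice. In injured tissue they leave the vessels, release cytokines and chemokines, and can take on features of macrophages or of antigen-presenting cells. Interferon, through transcription factors such as Stat2 and Irf9, and haem or metal stress, through Nfe2l2 and Mtf1, each switch on well-known sets of genes in them. Resolvin D1 (RvD1) is a lipid mediator made from docosahexaenoic acid, and Fpr2 is among its receptors.

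The 4 groups were recipient cells of grafts under RvD1, donor cells under RvD1, recipient cells under vehicle and donor cells under vehicle, with 1 library each, and each library pooled the left lungs of 2 mice. Just before transplantation, 200 ng of RvD1 per mouse was injected into a vein in a volume of 200 µL with 1% ethanol, and the comparison groups received vehicle. The protocol in the labels names the recipient mouse as treated, and the design text names the graft. In all groups, donor and recipient were B6 mice of the same inbred strain, the graft had been kept in low-potassium dextran glucose, cold for 60 min at 4 °C then warm for 45 min at 28 °C, and it was collected 2 h after transplantation, so that no group was without ischaemic injury. The sources used here do not say how donor cells were told from recipient cells, nor whether 1 pair of lungs gave both libraries of a treatment.

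The chemistry was 10x Genomics 3' v3. The 4 libraries held between 42199775 and 61294707 UMIs, and the classical monocytes in them held between 1493520 (RvD1 recipient) and 8001258 (RvD1 donor). Levels are given as CPM, the counts of a gene scaled to 1e6 UMIs summed over the classical monocytes of a library. Each group being 1 library without a replicate, no test between groups was run; ratios compare the libraries named, and each 95% interval, given in parentheses after its value, covers counting error only. Ratios are on the log2 scale: those given in recipient and in donor cells are of RvD1 over vehicle, and those given with RvD1 and with vehicle are of recipient over donor. Per the file headers, the RvD1 pair was processed with Cell Ranger 7.0.1 and the vehicle pair with 6.1.1, so an effect of treatment and one of the software cannot be told apart. Between 4 and 14 barcodes were shared by any pair of libraries, and 0 of them belonged to classical monocytes of both.

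The first question was how common these cells were in each library. Classical monocytes made up 1.65% (126 of 7623 cells, exact Clopper-Pearson 95% interval 1.38 to 1.96) of RvD1 recipient cells, 9.88% (503 of 5092, 9.07 to 10.7) of RvD1 donor cells, 1.89% (112 of 5918, 1.56 to 2.27) of vehicle recipient cells and 4.79% (271 of 5658, 4.25 to 5.38) of vehicle donor cells. Both donor libraries lay above both recipient libraries, and the share was highest among RvD1 donor cells. The median depth of these monocytes was 11894.5 UMIs in RvD1 recipient and 15495 in RvD1 donor cells, with 14689.5 in vehicle recipient and 15418 in vehicle donor cells. After every cell had been thinned to 2000 UMIs before the rule was applied, the shares were 0.704% (0.526 to 0.922), 5.04% (4.44 to 5.69), 1.06% (0.811 to 1.35) and 1.94% (1.60 to 2.34), libraries ordered as before. All cells had been sorted for CD45, and the sort and the depth of each library can set these shares. Thinning left out cells under 2000 UMIs, which left 7384, 4900, 5867 and 5562 cells in the same order.

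**Figure D1:**
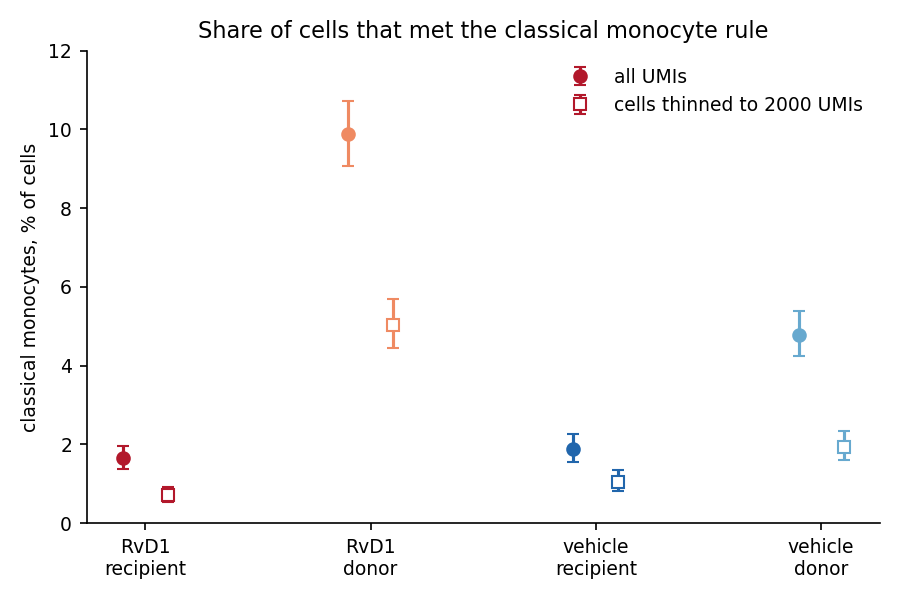
Share of cells that met the classical monocyte rule in each library (y axis, percent of cells kept). Filled circles use all UMIs, open squares use cells thinned to 2000 UMIs, and bars are exact 95% intervals for counting error; the RvD1 donor library stands highest under both, at 9.88% and 5.04%.

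The genes that chose the cells are given as a description. Ccr2, the receptor for Ccl2, stood at 988 CPM in RvD1 recipient and 786 in RvD1 donor monocytes, with 672 in vehicle recipient and 586 in vehicle donor monocytes. Ly6c2 stood at 960.1 CPM in RvD1 recipient and 806 in RvD1 donor monocytes, with 1101 in vehicle recipient and 912 in vehicle donor monocytes. Among the other genes of the rule, Vcan (the matrix proteoglycan versican) stood at 852 CPM in RvD1 recipient and 1588 in RvD1 donor monocytes, with 995 in vehicle recipient and 973 in vehicle donor monocytes. Fn1 (fibronectin) stood at 846 CPM in RvD1 recipient and 1172 in RvD1 donor monocytes, with 1496 in vehicle recipient and 847 in vehicle donor monocytes. F13a1 (a subunit of coagulation factor XIII) stood at 738 CPM in RvD1 recipient and 831 in RvD1 donor monocytes, with 688 in vehicle recipient and 516 in vehicle donor monocytes. All 5 marker genes of the label were present in each library. Of the cells that met every other condition, 45 RvD1 recipient, 73 RvD1 donor, 22 vehicle recipient and 112 vehicle donor cells were left out for 3 or more UMIs of Ace, Adgre4 and Cd300e. Of these, 11, 17, 4 and 28 had exactly 3, whereas 18, 32, 10 and 40 cells just inside the limit had 2. Cells left out only because Ly6c2 was at 0 were 38 RvD1 recipient, 46 RvD1 donor, 6 vehicle recipient and 51 vehicle donor cells.

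Beyond the genes of the rule, the 15 genes that stood highest over the nearest other myeloid class of the same libraries included Lyz2, Ms4a4c, Ifitm3, Ifitm6 and Nrg1. The other classes were 1370 nonclassical monocytes, 6226 neutrophils, 243 alveolar macrophages, 181 C1q-positive macrophages and 78 type 2 dendritic cells, each defined by its own marker counts. Since the cells were chosen on these counts, no test was made. Lyz2, the lysozyme of myeloid cells, was at 17348 CPM in RvD1 recipient and 15801 in RvD1 donor monocytes, with 17977 in vehicle recipient and 14052 in vehicle donor monocytes, against 8271 CPM in C1q-positive macrophages, the nearest class. Ms4a4c, a membrane-spanning protein, was at 445 CPM in RvD1 recipient and 349 in RvD1 donor monocytes, with 347 in vehicle recipient and 358 in vehicle donor monocytes, against 183 CPM in type 2 dendritic cells. Ifitm3, which blocks viral entry, was at 4485 CPM in RvD1 recipient and 3359 in RvD1 donor monocytes, with 4415 in vehicle recipient and 3657 in vehicle donor monocytes, against 2211 CPM in nonclassical monocytes. Its relative Ifitm6 was at 846 CPM in RvD1 recipient and 576 in RvD1 donor monocytes, with 1093 in vehicle recipient and 633 in vehicle donor monocytes, against 366 CPM in nonclassical monocytes. The growth factor gene Nrg1, a ligand of ErbB receptors, was at 232 CPM in RvD1 recipient and 216 in RvD1 donor monocytes, with 330.4 in vehicle recipient and 279 in vehicle donor monocytes, against 118 CPM in C1q-positive macrophages. Other leading genes were Ms4a6c, Emb, H2afj, Mgst1, Maf, Ndufb1-ps, the scavenger receptor Msr1, Psma7, Sem1 and Tmsb10.

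At a common depth of 2000 UMIs per cell, Cd14, a co-receptor for bacterial lipopolysaccharide, had a UMI in 84.0% of RvD1 recipient, 81.4% of RvD1 donor, 89.3% of vehicle recipient and 78.2% of vehicle donor monocytes, against 3.24%, 4.31%, 2.01% and 2.05% of B cells of the same libraries. F10, which encodes coagulation factor X, had one in 28.8% of RvD1 recipient, 44.7% of RvD1 donor, 48.2% of vehicle recipient and 48.7% of vehicle donor monocytes, against 0.141%, 0%, 0% and 0% of B cells. Both genes lay far above the level in B cells, which should lack them. For F10, 0 of 209 RvD1 donor, 0 of 647 vehicle recipient and 0 of 341 vehicle donor B cells allow shares of up to 1.75%, 0.569% and 1.08% by the exact interval. Shallower cells were left out, 1 of the RvD1 recipient and 2 of the RvD1 donor monocytes. Median depths before thinning ranged from 11894.5 to 15495 UMIs in the monocytes and from 4835 to 6932 UMIs in the B cells.

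Markers of other cell types were summed outside the genes of the rule. The neutrophil gene Ly6g, the alveolar macrophage gene Marco, the T cell gene Cd8a and the stromal genes Col1a1, Col1a2 and Dcn were at 0 in the classical monocytes of all 4 libraries. The 11 neutrophil markers summed to 501 CPM in RvD1 recipient, 619.8 CPM in RvD1 donor, 608 CPM in vehicle recipient and 364 CPM in vehicle donor monocytes, with Il1r2 the highest of them in each library. The 5 nonclassical monocyte markers summed to 311, 323, 194 and 319.6 CPM in the same order, and the 9 dendritic cell markers to 86.4, 61.5, 63.4 and 75.5 CPM. The 5 C1q-positive macrophage markers outside the rule summed to 2618, 1715, 1978 and 1709 CPM, nearly all of it Apoe, an apolipoprotein that stood at 2584.5, 1667, 1941 and 1676 CPM. The alveolar macrophage, T cell, B cell, platelet, red cell, basophil and mast cell, and stromal markers summed to at most 32.3 CPM each in any library. The 5 NK cell markers summed to 108 CPM in RvD1 recipient, 3.75 CPM in RvD1 donor, 3.05 CPM in vehicle recipient and 6.69 CPM in vehicle donor monocytes. The RvD1 recipient value came mostly from 131 UMIs of Gzma in 5 cells. The doublet caller Scrublet called 1, 5, 2 and 5 of the classical monocytes doublets in the same order, and these cells were kept.

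The second question was how recipient monocytes differed from donor monocytes of the same treatment. Recipient monocytes held more transcript of interferon-stimulated genes than donor monocytes in both treatments, and less of Rgs1, Kcnk13, Spp1 and Lmna, among others. Of 48 type I interferon-stimulated genes of the list found in the files, 35 reached 100 UMIs over the libraries compared, in both treatments. The log2 ratio of recipient over donor was above 0 in both treatments for 28 of the 35 and below 0 in both for 0, against 17.6% above and 33.8% below among the 5770 genes described. Its median was 0.63 with RvD1 and 0.36 with vehicle, against -0.08 and -0.04 over all genes described. In nonclassical monocytes the list median was 0.22 with RvD1 and 0.06 with vehicle, and in neutrophils 0.11 and -0.14. At least 1.5-fold higher in both treatments were 6 of the 35 (Oasl2, Rtp4, Slfn1, Slfn5, Zbp1 and Parp14), against 0.295% (17 of 5770) of all genes described. At least 1.5-fold lower in both were 0 of the 35, against 1.01% of all genes.

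Rtp4, an interferon-induced protein that restricts virus replication, stood at 71.0 CPM in RvD1 recipient and 27.9 in RvD1 donor monocytes, with 116 in vehicle recipient and 55.6 in vehicle donor monocytes. Both recipient libraries lay above both donor libraries. The log2 ratio was 1.35 (1.00 to 1.69) with RvD1 and 1.06 (0.78 to 1.34) with vehicle. Zbp1, a sensor of Z-form nucleic acid that can set off cell death, stood at 141 CPM in RvD1 recipient and 63.0 in RvD1 donor monocytes, with 164 in vehicle recipient and 86.5 in vehicle donor monocytes, and its recipient libraries again lay above both donor libraries. Its log2 ratio was 1.17 (0.93 to 1.40) with RvD1 and 0.92 (0.69 to 1.15) with vehicle. Oasl2, of the family of oligoadenylate synthetases, stood at 54.2 CPM in RvD1 recipient and 21.4 in RvD1 donor monocytes, with 72.5 in vehicle recipient and 43.2 in vehicle donor monocytes, again with both recipient libraries highest, and its ratio was 1.34 with RvD1 and 0.75 with vehicle. The Oasl2 ratio with vehicle was 0.39 without the cells above 20000 UMIs. Eif2ak2, the kinase that halts translation on double-stranded RNA, stood at 49.5 CPM in RvD1 recipient and 37.2 in RvD1 donor monocytes, with 87.8 in vehicle recipient and 42.7 in vehicle donor monocytes, and its ratio was 0.41 with RvD1 and 1.04 with vehicle.

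Other members had unlike ratios in the 2 treatments. Isg15, a ubiquitin-like modifier, stood at 108 CPM in RvD1 recipient and 47.1 in RvD1 donor monocytes, with 111 in vehicle recipient and 93.5 in vehicle donor monocytes, so that the RvD1 donor library lay below all others; its log2 ratio of recipient over donor was 1.20 (0.93 to 1.47) with RvD1 and 0.25 (-0.01 to 0.50) with vehicle. Irf7, the master regulator of interferon-alpha genes, stood at 111 CPM in RvD1 recipient and 57.7 in RvD1 donor monocytes, with 92.6 in vehicle recipient and 105 in vehicle donor monocytes. The Irf7 ratio was 0.94 with RvD1 and -0.18 with vehicle. The transcription factor Stat2, which carries the interferon signal to the nucleus, had a ratio of 0.88 with RvD1 and 0.26 with vehicle. Whether the list differed between treatments was not tested, since each treatment has 1 library per origin. When every cell was thinned to 2000 UMIs before the rule, 6 genes of the list remained to be described and their medians were 0.33 with RvD1 and 0.01 with vehicle. Both libraries of a treatment carry the same software version.

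**Figure D2:**
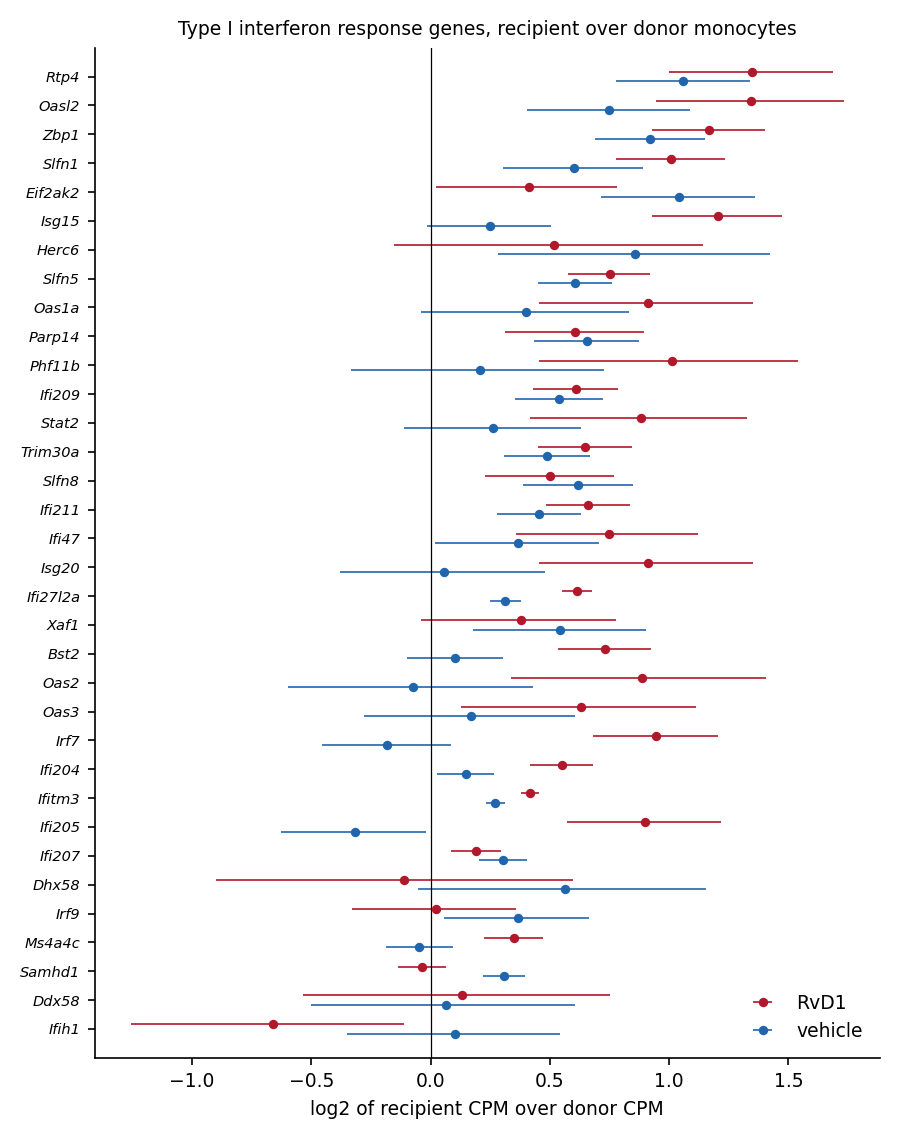
Log2 ratio of recipient over donor CPM (x axis) for 34 of the 35 described type I interferon-stimulated genes (y axis, ordered by the mean of both ratios), with RvD1 in red and vehicle in blue. Bars are 95% intervals for counting error. For 27 of the 34 genes drawn both points lie right of 0, and Rtp4 and Zbp1 are near the top.

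The guanylate-binding proteins and immunity-related GTPases, which attack pathogen-containing vacuoles and are induced chiefly by interferon-gamma, had 6 of 18 members described. All 6 had ratios above 0 in both treatments, against 17.6% of all genes, and the median was 0.48 with RvD1 and 0.51 with vehicle. In nonclassical monocytes the list median was 0.63 with RvD1 and 0.69 with vehicle, and in neutrophils 0.30 and -0.23. Irgm1 stood at 45.5 CPM in RvD1 recipient and 24.2 in RvD1 donor monocytes, with 86.5 in vehicle recipient and 57.5 in vehicle donor monocytes. The Irgm1 ratio was 0.91 with RvD1 and 0.59 with vehicle, and was the only member at least 1.5-fold higher in both. Gbp2 stood at 20.8 CPM in RvD1 recipient and 13.9 in RvD1 donor monocytes, with 60.3 in vehicle recipient and 36.7 in vehicle donor monocytes. The Gbp2 ratio was 0.58 with RvD1 and 0.72 with vehicle. In both genes the order of all libraries was vehicle recipient, vehicle donor, RvD1 recipient and RvD1 donor, from high to low.

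The promoters of Gbp2, Irgm1 and Oas1a are shown as examples from the interferon groups, and Oas1a was chosen after its values were seen. Each run is the 250 bases before the annotated start, 5′ to 3′ on the gene's strand, from RefSeq on GRCm38.p6. Capitals mark matches to the interferon-stimulated response element, searched on both strands as GAAA, any 2 bases and GAAA again. Gbp2 lies at chr3:142620413-142620662 on the plus strand, Irgm1 at chr11:48871421-48871670 on the minus strand and Oas1a at chr5:120907526-120907775 on the minus strand.
Gbp2: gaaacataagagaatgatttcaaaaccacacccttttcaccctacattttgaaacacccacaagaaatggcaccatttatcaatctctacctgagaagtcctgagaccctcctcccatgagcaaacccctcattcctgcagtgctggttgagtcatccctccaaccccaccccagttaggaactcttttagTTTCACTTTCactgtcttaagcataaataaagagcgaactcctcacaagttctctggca
Irgm1: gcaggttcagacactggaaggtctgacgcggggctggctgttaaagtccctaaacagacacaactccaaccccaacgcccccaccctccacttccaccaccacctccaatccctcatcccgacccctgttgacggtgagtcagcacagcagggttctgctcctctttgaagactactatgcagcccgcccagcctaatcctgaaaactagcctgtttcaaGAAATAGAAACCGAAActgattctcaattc
Oas1a: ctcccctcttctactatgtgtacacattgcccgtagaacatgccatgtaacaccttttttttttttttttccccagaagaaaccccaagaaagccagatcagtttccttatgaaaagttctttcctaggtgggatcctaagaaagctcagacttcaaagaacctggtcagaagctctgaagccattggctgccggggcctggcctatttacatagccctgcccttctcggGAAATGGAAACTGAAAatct

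The match in Gbp2 (TTTCACTTTC) begins 59 bases before the start. The matches in Irgm1 (GAAATAGAAA and GAAACCGAAA) overlap and begin 30 and 24 bases before it, and those in Oas1a (GAAATGGAAA and GAAACTGAAA) overlap and begin 20 and 14 bases before it. Oas1a stood at 38.8 CPM in RvD1 recipient and 20.6 in RvD1 donor monocytes, with 41.4 in vehicle recipient and 31.4 in vehicle donor monocytes. The Oas1a ratio was 0.91 with RvD1 and 0.40 with vehicle, and its recipient libraries lay close together. Such a match was present in 821 of 27025 promoters of this length (3.04%), in 18 of the 39 listed type I interferon-stimulated genes found in the table (46.2%) and in 10 of the 11 guanylate-binding proteins and GTPases found there (90.9%). A match is a description of the letters and no evidence of binding. Rtp4, Zbp1, Nlrc5 and Parp14 have no entry in the table used.

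Over all genes, 1 of 5770 was at least 2-fold higher in recipient than in donor monocytes in both treatments (0.0173%; Rtp4) and 5 were at least 2-fold lower (0.0867%; Rgs1, Kcnk13, Spp1, Areg and Nedd4l). Rgs1, which dampens chemokine receptor signals, stood at 8.70 CPM in RvD1 recipient and 30.4 in RvD1 donor monocytes, with 21.3 in vehicle recipient and 52.6 in vehicle donor monocytes, with 13 and 35 UMIs in the recipient libraries. Its log2 ratio was -1.80 (-2.73 to -1.0) with RvD1 and -1.30 (-1.86 to -0.78) with vehicle. Kcnk13, a background potassium channel gene, stood at 13.4 CPM in RvD1 recipient and 30.9 in RvD1 donor monocytes, with 9.75 in vehicle recipient and 28.2 in vehicle donor monocytes. Its log2 ratio was -1.20 (-1.94 to -0.55) with RvD1 and -1.53 (-2.38 to -0.77) with vehicle. Spp1 (osteopontin, a secreted ligand of integrins and CD44) stood at 22.1 CPM in RvD1 recipient and 50.5 in RvD1 donor monocytes, with 13.4 in vehicle recipient and 64.6 in vehicle donor monocytes. The Spp1 ratio was -1.19 (-1.75 to -0.68) with RvD1 and -2.27 (-2.97 to -1.64) with vehicle. Areg, a ligand of the epidermal growth factor receptor, stood at 18.7 CPM in RvD1 recipient and 41.1 in RvD1 donor monocytes, with 6.70 in vehicle recipient and 20.8 in vehicle donor monocytes, and a single cell held 60.7%, 13.1%, 81.8% and 52.2% of its UMIs in the same order of libraries. In each of these genes both recipient libraries lay below both donor libraries, by few UMIs. With vehicle, the ratio of Rgs1 was -0.65 without cells above 20000 UMIs and -0.63 without cells positive for MHC class II genes, and that of Spp1 was -0.92 without cells above 20000 UMIs.

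Among genes with smaller ratios, Lmna (lamins A and C of the nuclear envelope) stood at 139 CPM in RvD1 recipient and 245 in RvD1 donor monocytes, with 99.3 in vehicle recipient and 238 in vehicle donor monocytes. The Lmna ratio was -0.82 (-1.04 to -0.61) with RvD1 and -1.26 (-1.51 to -1.02) with vehicle. Cd63, a tetraspanin of late endosomes, stood at 14.7 CPM in RvD1 recipient and 25.6 in RvD1 donor monocytes, with 12.2 in vehicle recipient and 42.9 in vehicle donor monocytes. The Cd63 ratio was -0.80 with RvD1 and -1.82 with vehicle; without the cells positive for MHC class II genes the ratio with RvD1 was -0.34. The calcium-binding annexin partner S100a10 stood at 1084 CPM in RvD1 recipient and 1554 in RvD1 donor monocytes, with 725 in vehicle recipient and 1099.7 in vehicle donor monocytes. The S100a10 ratio was -0.52 with RvD1 and -0.60 with vehicle, and Anxa2 at 738 CPM in RvD1 recipient and 945 in RvD1 donor monocytes, with 506 in vehicle recipient and 759 in vehicle donor monocytes. The Anxa2 ratio was -0.36 with RvD1 and -0.58 with vehicle. On the other side, Pde7b, which breaks down cyclic AMP, stood at 237 CPM in RvD1 recipient and 149.6 in RvD1 donor monocytes, with 489 in vehicle recipient and 300.3 in vehicle donor monocytes, higher in recipient cells within each treatment but higher with vehicle in each origin, and its ratio by origin was 0.66 with RvD1 and 0.70 with vehicle. Trim30b and Trim30c, neighbouring genes of the TRIM family on chromosome 7, had ratios of 1.26 with RvD1 and 0.89 with vehicle and of 1.02 with RvD1 and 0.92 with vehicle; they are close copies, and reads may have been split between them. Ms4a8a and Tmem251 had ratios of 0.85 with RvD1 and 0.80 with vehicle and of 0.71 with RvD1 and 0.63 with vehicle.

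The third question was how the monocytes of RvD1 grafts differed from those of vehicle grafts. In both origins, RvD1 monocytes held less transcript of thrombomodulin, haem oxygenase, metallothionein 2 and interferon-response genes, and more of the histone genes Hist1h1c and Hist1h1e and of Grk5, Traf5 and Rai14. Of 3995 genes with at least 100 UMIs over the libraries compared in each origin, 12 were at least 2-fold higher in both origins (0.3%) and 21 at least 2-fold lower in both (0.526%). At 1.5-fold the counts were 42 (1.05%) higher and 125 (3.13%) lower. The ratio was above 0 in both origins for 1199 of these genes (30%) and below 0 in both for 1489 (37.3%), with medians of -0.04 in recipient and -0.02 in donor cells. The software version differs in the same way as the treatment in every one of these ratios.

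Thbd encodes thrombomodulin, which turns thrombin into an activator of the anticoagulant protein C. It stood at 30.1 CPM in RvD1 recipient and 31.9 in RvD1 donor monocytes, with 104 in vehicle recipient and 105 in vehicle donor monocytes, so that both RvD1 libraries lay below both vehicle libraries, at close levels within a treatment. The log2 ratio of RvD1 over vehicle was -1.78 (-2.29 to -1.30) in recipient and -1.73 (-1.95 to -1.5) in donor cells. Thbd has 0 intron bases in the annotation. At 2000 UMIs per cell it had a UMI in 3.20% of RvD1 recipient, 4.79% of RvD1 donor, 15.2% of vehicle recipient and 14.4% of vehicle donor monocytes, against 0.423%, 1.44%, 0.464% and 0.587% of B cells; without thinning the shares of monocytes were 19.8% of RvD1 recipient, 23.7% of RvD1 donor, 56.2% of vehicle recipient and 48.7% of vehicle donor cells. Nceh1, a hydrolase of neutral cholesterol esters, stood at 49.5 CPM in RvD1 recipient and 60.6 in RvD1 donor monocytes, with 163 in vehicle recipient and 172 in vehicle donor monocytes. The Nceh1 ratio was -1.72 (-2.11 to -1.34) in recipient and -1.51 (-1.68 to -1.34) in donor cells. Tgif1, a repressor of transcription in the TGF-beta pathway, stood at 60.3 CPM in RvD1 recipient and 57.9 in RvD1 donor monocytes, with 140.2 in vehicle recipient and 149.8 in vehicle donor monocytes. The Tgif1 ratio was -1.22 (-1.59 to -0.86) in recipient and -1.37 (-1.55 to -1.20) in donor cells. Irs2, an adaptor of the insulin receptor, stood at 21.4 CPM in RvD1 recipient and 20.4 in RvD1 donor monocytes, with 70.7 in vehicle recipient and 54.2 in vehicle donor monocytes. The Irs2 ratio was -1.72 in recipient and -1.41 in donor cells. Ece1 (endothelin-converting enzyme), Plekhg1 and Setbp1 completed the 10 leading lower genes, with Nlrc5, Mt2 and Gbp2 described with their groups; in all 10, both RvD1 libraries lay below both vehicle libraries.

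On the higher side, Grk5, a kinase that silences G protein-coupled receptors, stood at 409.8 CPM in RvD1 recipient and 423 in RvD1 donor monocytes, with 183 in vehicle recipient and 184 in vehicle donor monocytes, and was at like levels within each treatment. Its log2 ratio was 1.16 (0.96 to 1.36) in recipient and 1.20 (1.09 to 1.31) in donor cells. Rai14, an actin-binding protein, stood at 55.6 CPM in RvD1 recipient and 87.6 in RvD1 donor monocytes, with 20.7 in vehicle recipient and 26.3 in vehicle donor monocytes. The Rai14 ratio was 1.42 (0.83 to 2.04) in recipient and 1.74 (1.45 to 2.03) in donor cells. Traf5, an adaptor of TNF-family receptors, stood at 69.0 CPM in RvD1 recipient and 61.2 in RvD1 donor monocytes, with 23.2 in vehicle recipient and 27.5 in vehicle donor monocytes. The Traf5 ratio was 1.57 (1.02 to 2.15) in recipient and 1.16 (0.87 to 1.46) in donor cells. Dpep2, a membrane dipeptidase that can cleave leukotriene D4, stood at 91.7 CPM in RvD1 recipient and 96.4 in RvD1 donor monocytes, with 21.9 in vehicle recipient and 44.3 in vehicle donor monocytes. The Dpep2 ratio was 2.06 (1.53 to 2.64) in recipient and 1.12 (0.89 to 1.36) in donor cells. Socs6 and Rap1gap2 were also among the 10 leading higher genes. In each of them both RvD1 libraries lay above both vehicle libraries.

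Histone genes formed 3 of the 10. The linker histone gene Hist1h1c stood at 77.7 CPM in RvD1 recipient and 115 in RvD1 donor monocytes, with 30.5 in vehicle recipient and 26.5 in vehicle donor monocytes. The Hist1h1c ratio was 1.35 (0.86 to 1.86) in recipient and 2.12 (1.84 to 2.41) in donor cells. Hist1h1e, another linker histone gene, stood at 189 CPM in RvD1 recipient and 160.5 in RvD1 donor monocytes, with 89.0 in vehicle recipient and 61.4 in vehicle donor monocytes. The Hist1h1e ratio was 1.09 in recipient and 1.39 in donor cells, and the core histone gene Hist1h4d at 123 CPM in RvD1 recipient and 97.7 in RvD1 donor monocytes, with 36.0 in vehicle recipient and 50.3 in vehicle donor monocytes. The Hist1h4d ratio was 1.78 in recipient and 0.96 in donor cells. Linker histones close DNA around the nucleosome, and H4 is part of its core. Histone H4 genes are near-identical copies, so the reads of Hist1h4d are uncertain.

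**Figure D3:**
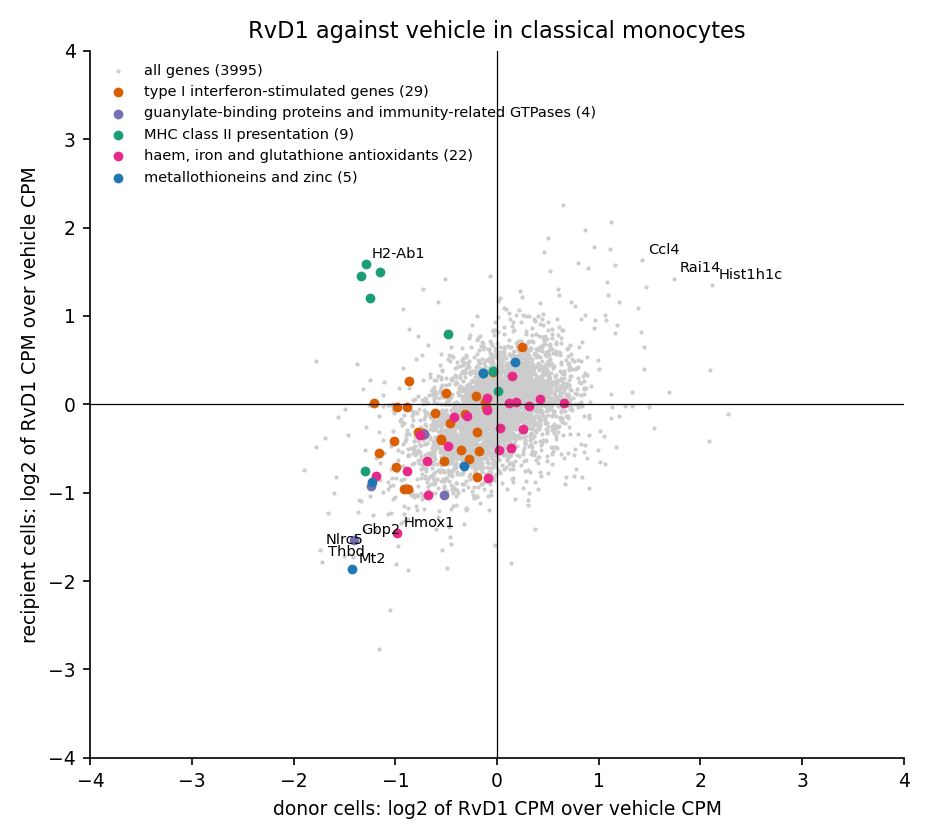
Log2 ratio of RvD1 over vehicle CPM in donor cells (x axis) and recipient cells (y axis), 1 point per gene with at least 100 UMIs in each comparison, with gene lists in colour. Thbd, Nlrc5, Mt2, Gbp2 and Hmox1 lie in the lower left, Rai14, Hist1h1c and Ccl4 in the upper right, and the class II gene H2-Ab1 in the upper left.

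Several genes of haem and metal handling were lower with RvD1 in both origins. Of 22 described genes of haem, iron and glutathione metabolism, 5 lay lower by 1.5-fold or more in both origins and 0 higher, against 3.13% lower and 1.05% higher of all genes. The median was -0.27 in recipient and -0.09 in donor cells, against -0.04 and -0.02 over all genes. In nonclassical monocytes the list median was -0.04 in recipient and -0.14 in donor cells, and in neutrophils -0.21 and -0.14. Hmox1, which breaks haem down to biliverdin, iron and carbon monoxide, stood at 193 CPM in RvD1 recipient and 363 in RvD1 donor monocytes, with 531 in vehicle recipient and 717 in vehicle donor monocytes. Each RvD1 library lay below both vehicle libraries, and each recipient library below the donor library of its treatment. The log2 ratio was -1.46 (-1.66 to -1.27) in recipient and -0.98 (-1.06 to -0.91) in donor cells. Slc7a11 and Slc3a2 together import cystine for glutathione synthesis. Slc7a11 stood at 339 CPM in RvD1 recipient and 394 in RvD1 donor monocytes, with 691 in vehicle recipient and 633 in vehicle donor monocytes. Slc3a2 stood at 116 CPM in RvD1 recipient and 113 in RvD1 donor monocytes, with 196 in vehicle recipient and 210.0 in vehicle donor monocytes. Their ratios were -1.02 in recipient and -0.68 in donor cells for Slc7a11 and -0.76 in recipient and -0.89 in donor cells for Slc3a2. Gclc, the catalytic subunit of the first enzyme of glutathione synthesis, had a ratio of -0.81 in recipient and -1.19 in donor cells, and Nfe2l2, the transcription factor of this response, stood at 585 CPM in RvD1 recipient and 556 in RvD1 donor monocytes, with 912 in vehicle recipient and 895 in vehicle donor monocytes. The Nfe2l2 ratio was -0.64 in recipient and -0.69 in donor cells.

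Metallothioneins bind zinc and copper, and Slc30a1 exports zinc. Of 5 described genes of this list, 2 lay lower by 1.5-fold or more in both origins (Mt2 and Slc30a1), against 3.13% of all genes. Mt2 stood at 14.1 CPM in RvD1 recipient and 30.9 in RvD1 donor monocytes, with 51.2 in vehicle recipient and 82.9 in vehicle donor monocytes, lower in both RvD1 libraries, and the RvD1 recipient value rests on 21 UMIs. Its log2 ratio was -1.86 (-2.63 to -1.16) in recipient and -1.42 (-1.66 to -1.19) in donor cells. Mt1, at a far higher level, stood at 1456 CPM in RvD1 recipient and 1473 in RvD1 donor monocytes, with 2371 in vehicle recipient and 1841 in vehicle donor monocytes. The Mt1 ratio was -0.70 (-0.78 to -0.63) in recipient and -0.32 (-0.36 to -0.28) in donor cells. Slc30a1 stood at 36.2 CPM in RvD1 recipient and 35.1 in RvD1 donor monocytes, with 66.4 in vehicle recipient and 82.4 in vehicle donor monocytes. The Slc30a1 ratio was -0.88 in recipient and -1.23 in donor cells.

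The Mt2 promoter is shown because metal response elements are the known route by which Mtf1 acts on this gene. The run is the 250 bases before the start at chr8:94172368-94172617 on the plus strand (RefSeq, GRCm38.p6), and capitals mark matches to TGCACNC or TGCGCNC or their reverse complements.
Mt2: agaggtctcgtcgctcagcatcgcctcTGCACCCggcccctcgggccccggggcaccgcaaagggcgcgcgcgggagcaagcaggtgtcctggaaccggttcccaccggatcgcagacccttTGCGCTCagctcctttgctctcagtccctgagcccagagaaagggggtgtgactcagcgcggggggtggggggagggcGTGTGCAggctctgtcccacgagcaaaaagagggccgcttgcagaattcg

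The 3 matches begin 223, 128 and 50 bases before the start. A match of this kind was present in 21.3% of all 27025 promoters, and in 4 of the 9 genes of the metallothionein and zinc list found in the table (44.4%).

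Interferon-response genes were mostly lower with RvD1. Of 29 described type I interferon-stimulated genes, the log2 ratio was below 0 in both origins for 22 and above 0 in both for 1, against 37.3% below and 30% above among all genes. At least 1.5-fold lower in both were 3 of the 29, against 3.13% of all genes. The median was -0.32 in recipient and -0.55 in donor cells, against -0.04 and -0.02 over all genes. Lower medians were not particular to classical monocytes. Over the genes described in each class, the list had -0.29 in recipient and -0.48 in donor nonclassical monocytes. In neutrophils it had -0.33 in recipient and -0.68 in donor cells. Parp14, an ADP-ribosyltransferase, stood at 85.0 CPM in RvD1 recipient and 55.9 in RvD1 donor monocytes, with 166 in vehicle recipient and 105 in vehicle donor monocytes. The Parp14 ratio was -0.96 (-1.28 to -0.65) in recipient and -0.91 (-1.11 to -0.72) in donor cells. Slfn1 was the gene above 0 in both, at 145 CPM in RvD1 recipient and 72.2 in RvD1 donor monocytes, with 92.6 in vehicle recipient and 61.2 in vehicle donor monocytes. The Slfn1 ratio was 0.65 in recipient and 0.24 in donor cells. All 4 described guanylate-binding proteins and GTPases (Gbp2, Gbp7, Irgm1 and Ifi47) had ratios below 0 in both origins, against 37.3% of all genes, with a median of -0.98 in recipient and -0.98 in donor cells. This list also had medians below 0 in other classes, at -0.53 in recipient and -0.48 in donor nonclassical monocytes. In neutrophils they were -0.78 in recipient and -1.06 in donor cells. The ratio of Gbp2 was -1.54 (-2.17 to -0.94) in recipient and -1.40 (-1.77 to -1.04) in donor cells. Nlrc5, the transactivator of MHC class I genes, stood at 18.1 CPM in RvD1 recipient and 16.4 in RvD1 donor monocytes, with 56.7 in vehicle recipient and 54.9 in vehicle donor monocytes. The Nlrc5 ratio was -1.65 (-2.32 to -1.02) in recipient and -1.75 (-2.07 to -1.43) in donor cells. Of its targets, Tap1, the peptide transporter, had a ratio of -0.63 in recipient and -0.97 in donor cells, and the class I gene H2-K1 stood at 708 CPM in RvD1 recipient and 547 in RvD1 donor monocytes, with 801 in vehicle recipient and 844 in vehicle donor monocytes. The H2-K1 ratio was -0.18 in recipient and -0.63 in donor cells. Thinned to 2000 UMIs before the rule, the interferon list had 6 genes described, with medians of -0.10 in recipient and -0.07 in donor cells.

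**Figure D4:**
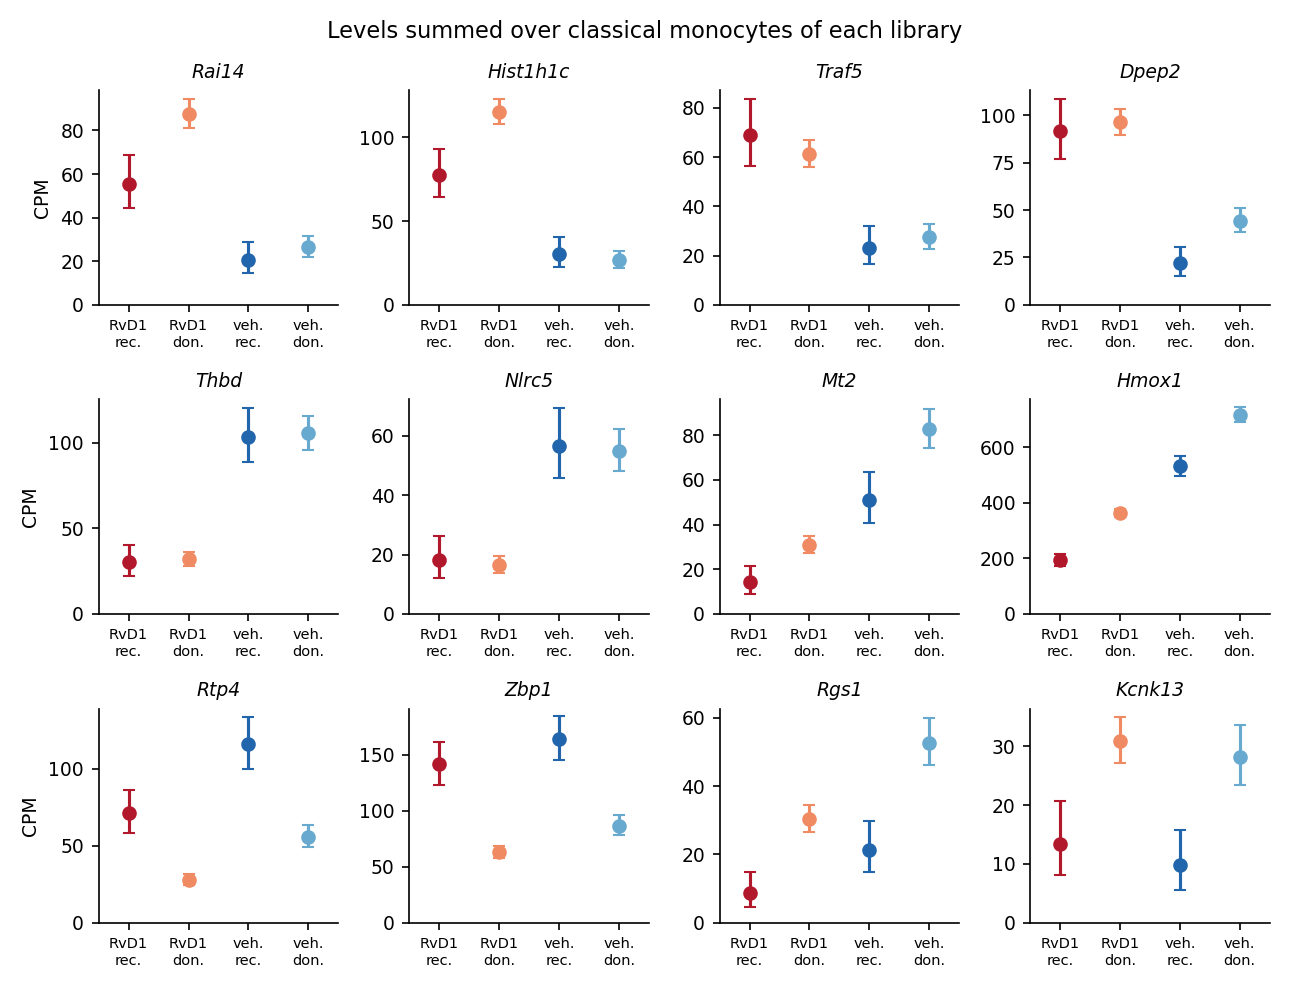
CPM summed over the classical monocytes of each library (y axis from 0, libraries on the x axis) for 12 named genes, with exact Poisson 95% intervals for counting error. Rai14, Hist1h1c, Traf5 and Dpep2 are higher in both RvD1 libraries, Thbd, Nlrc5, Mt2 and Hmox1 lower in both, Rtp4 and Zbp1 higher in both recipient libraries, and Rgs1 and Kcnk13 lower in both.

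Inflammatory signalling genes were mixed. Of 28 described TNF and NF-kB response genes, 16 had ratios below 0 in both origins and 3 above 0 in both, against 37.3% and 30% of all genes, and the median was -0.15 in recipient and -0.35 in donor cells. In nonclassical monocytes the list median was -0.07 in recipient and -0.43 in donor cells, and in neutrophils -0.02 and 0.01. Rel, an NF-kB subunit, stood at 190.2 CPM in RvD1 recipient and 209 in RvD1 donor monocytes, with 309.6 in vehicle recipient and 398 in vehicle donor monocytes. The Rel ratio was -0.70 in recipient and -0.93 in donor cells, and Nfkb1 had a ratio of -0.76 in recipient and -0.61 in donor cells. Rel and Nfkb1 were the 2 of the 28 members at least 1.5-fold lower in both, against 3.13% of all genes. Il1b, the inflammasome substrate interleukin-1 beta, stood at 2248 CPM in RvD1 recipient and 1968 in RvD1 donor monocytes, with 1577 in vehicle recipient and 2033 in vehicle donor monocytes. The Il1b ratio was 0.51 in recipient and -0.05 in donor cells. Tnf itself stood at 32.1 CPM in RvD1 recipient and 29.9 in RvD1 donor monocytes, with 35.4 in vehicle recipient and 66.7 in vehicle donor monocytes, with the vehicle donor library above the others. Of 17 described heat shock chaperones, 10 were below 0 in both origins and 0 above, against 37.3% and 30% of all genes. Their median was -0.23 in recipient and -0.45 in donor cells. In nonclassical monocytes the list median was -0.20 in recipient and -0.47 in donor cells, and in neutrophils -0.09 and 0.06. The stress-induced Hspa1a stood at 57.6 CPM in RvD1 recipient and 22.6 in RvD1 donor monocytes, with 59.7 in vehicle recipient and 63.7 in vehicle donor monocytes, lowest among RvD1 donor cells. Of 18 described inflammasome genes, Casp4, the sensor of cytosolic lipopolysaccharide, had a ratio of -0.57 in recipient and -0.88 in donor cells.

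Of 8 described chemokine ligands, 2 were at least 1.5-fold higher with RvD1 in both origins (Ccl4 and Cxcl3) and 0 lower, against 1.05% higher and 3.13% lower of all genes. Ccl4, a chemokine that attracts monocytes and T cells, stood at 129 CPM in RvD1 recipient and 107 in RvD1 donor monocytes, with 41.4 in vehicle recipient and 39.9 in vehicle donor monocytes, but a single cell held 45.8%, 62.9%, 25% and 45.7% of its UMIs in the same order, and only 13, 45, 15 and 36 cells had any. Its log2 ratio was 1.63 (1.23 to 2.05) in recipient and 1.42 (1.18 to 1.67) in donor cells; without the cells called doublets by Scrublet the donor ratio was -0.12. Cxcl3, a neutrophil attractant, stood at 247 CPM in RvD1 recipient and 249 in RvD1 donor monocytes, with 62.8 in vehicle recipient and 137 in vehicle donor monocytes. The Cxcl3 ratio was 1.98 (1.66 to 2.31) in recipient and 0.86 (0.73 to 1.00) in donor cells; the donor ratio was 0.10 with every cell thinned to 2000 UMIs before the rule. Ccl2, the ligand of Ccr2, stood at 281 CPM in RvD1 recipient and 268 in RvD1 donor monocytes, with 287 in vehicle recipient and 95.3 in vehicle donor monocytes, so that the vehicle donor library lay below the others, and its ratio was -0.03 in recipient and 1.49 in donor cells. Ccl6, a monocyte chemokine of mice, stood at 1771 CPM in RvD1 recipient and 1204 in RvD1 donor monocytes, with 2078 in vehicle recipient and 1339 in vehicle donor monocytes. It was higher in recipient than in donor cells of each treatment, with ratios of 0.56 with RvD1 and 0.63 with vehicle.

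Of the resolvin receptors, Fpr2 stood at 47.5 CPM in RvD1 recipient and 52.4 in RvD1 donor monocytes, with 63.4 in vehicle recipient and 37.6 in vehicle donor monocytes. The Fpr2 ratio was -0.42 (-0.87 to 0.03) in recipient and 0.48 (0.21 to 0.75) in donor cells. At 2000 UMIs per cell Fpr2 had a UMI in 8.0% of RvD1 recipient, 8.58% of RvD1 donor, 10.7% of vehicle recipient and 8.86% of vehicle donor monocytes, against 0.423%, 0%, 0.309% and 0% of B cells. Cmklr1, the receptor of chemerin, stood at 40.2 CPM in RvD1 recipient and 41.7 in RvD1 donor monocytes, with 50.6 in vehicle recipient and 71.8 in vehicle donor monocytes. The Cmklr1 ratio was -0.33 in recipient and -0.78 in donor cells. Hpgd, which inactivates prostaglandins, stood at 78.3 CPM in RvD1 recipient and 60.6 in RvD1 donor monocytes, with 23.8 in vehicle recipient and 44.1 in vehicle donor monocytes, higher in both RvD1 libraries, and its ratio was 1.72 (1.19 to 2.28) in recipient and 0.46 (0.22 to 0.71) in donor cells. Pla2g4a, the phospholipase that frees arachidonic acid, had a ratio of 0.79 in recipient and 0.60 in donor cells. Of 50 described respiratory chain and ATP synthase genes, 34 were above 0 in both origins and 0 below, against 30% and 37.3% of all genes. Their medians were 0.05 in recipient and 0.37 in donor cells, and none reached 1.5-fold in both. Described genes with the fewest intron bases, as binned below, had medians of 0.12 in recipient and 0.17 in donor cells. The part of intron length in the values of the respiratory chain list was not tested. The list had medians of 0.07 in recipient and 0.46 in donor nonclassical monocytes, and of 0.18 and 0.03 in neutrophils. Chil3, a chitinase-like protein of monocytes and macrophages, stood at 902 CPM in RvD1 recipient and 1902 in RvD1 donor monocytes, with 684 in vehicle recipient and 697 in vehicle donor monocytes. The Chil3 ratio was 0.40 (0.28 to 0.51) in recipient and 1.45 (1.39 to 1.5) in donor cells. The summed neutrophil markers given above were highest in RvD1 donor and lowest in vehicle donor monocytes, the order of Chil3 between the donor libraries. Between the recipient libraries their order was opposite to that of Chil3, with 501 CPM in RvD1 recipient and 608 CPM in vehicle recipient monocytes. The markers in the sum did not all share its order between the donor libraries. Mmp8 stood at 193 CPM in RvD1 donor and 40.2 in vehicle donor monocytes, and Il1r2 at 213 and 128. Lcn2, Wfdc21, Cxcr2 and G0s2 were also higher in RvD1 donor monocytes. Csf3r, at 68.1 and 98.5 CPM in the same order, was lower there, as were Retnlg, Mmp9 and Hdc. The part of neutrophil transcripts in the Chil3 values was not tested.

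Among genes that balance clotting and its breakdown, Entpd1 (the ectonucleotidase CD39) stood at 237 CPM in RvD1 recipient and 194 in RvD1 donor monocytes, with 400.4 in vehicle recipient and 385 in vehicle donor monocytes. The Entpd1 ratio was -0.76 (-0.95 to -0.57) in recipient and -0.99 (-1.09 to -0.89) in donor cells. Of 12 described coagulation genes, Thbd and Entpd1 were the 2 that lay lower by 1.5-fold or more in both origins, with 0 higher, against 3.13% lower and 1.05% higher of all genes. Serpinb2, an inhibitor of plasminogen activators, stood at 55.6 CPM in RvD1 recipient and 38.1 in RvD1 donor monocytes, with 22.6 in vehicle recipient and 63.2 in vehicle donor monocytes, so that its order by treatment was opposite in the 2 origins. Of 22 described receptors of cytokines and growth factors, 11 had ratios below 0 in both origins and 4 above 0 in both, against 37.3% and 30% of all genes. Csf2rb2, a receptor chain for interleukin-3, stood at 42.2 CPM in RvD1 recipient and 44.7 in RvD1 donor monocytes, with 69.5 in vehicle recipient and 73.4 in vehicle donor monocytes. The Csf2rb2 ratio was -0.72 in recipient and -0.71 in donor cells. Csf3r, the receptor of granulocyte colony-stimulating factor and a neutrophil marker, stood at 74.3 CPM in RvD1 recipient and 68.1 in RvD1 donor monocytes, with 133 in vehicle recipient and 98.5 in vehicle donor monocytes. The Csf3r ratio was -0.84 in recipient and -0.53 in donor cells. Of 20 described pattern recognition receptors, Tlr8, a sensor of single-stranded RNA in endosomes, was the 1 member at least 1.5-fold lower in both, with a ratio of -0.97 in recipient and -0.68 in donor cells; this share is near the 3.13% of all genes. Tlr2, a sensor of bacterial lipoproteins, had a ratio of -1.19 in recipient and -0.45 in donor cells, and Tlr4, the receptor of lipopolysaccharide, of -0.78 in recipient and 0.50 in donor cells.

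Of 24 described lysosomal genes, Npc1, which exports cholesterol from lysosomes, was the 1 member at least 1.5-fold lower in both origins, a share near the 3.13% of all genes. It stood at 26.8 CPM in RvD1 recipient and 34.5 in RvD1 donor monocytes, with 56.1 in vehicle recipient and 57.5 in vehicle donor monocytes. The Npc1 ratio was -1.07 (-1.64 to -0.52) in recipient and -0.74 (-0.99 to -0.48) in donor cells. Like Nceh1, it lay lower in both RvD1 libraries than in both vehicle libraries. Of 25 described monocyte transcription factors, 10 had ratios above 0 in both origins and 9 below 0 in both, near the 30% and 37.3% of all genes, and 0 reached 1.5-fold in both. Id2, which blocks the binding of E proteins to DNA, had a ratio of 0.99 in recipient and 0.40 in donor cells, and Irf1, an early interferon-response factor, of -0.31 in recipient and -1.16 in donor cells. Of 24 described immediate early genes, 0 reached 1.5-fold in both origins in either direction; Klf6 had a ratio of -0.87 in recipient and -0.55 in donor cells and the orphan nuclear receptor gene Nr4a1 of 1.06 in recipient and 0.22 in donor cells. The 18 described glycolysis and hypoxia genes had medians of 0.04 in recipient and 0.16 in donor cells, with 7 above 0 in both origins and 0 below, against 30% and 37.3% of all genes. Slc2a1, the glucose transporter GLUT1, had a ratio of 0.80 in recipient and 0.39 in donor cells.

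By origin, the other groups held few genes that differed in both treatments. Of 17 described class I presentation genes, 10 had ratios of recipient over donor above 0 in both treatments and 0 below, against 17.6% and 33.8% of all genes, and 0 reached 1.5-fold in both; the nonclassical class I gene H2-T23 had 0.57 with RvD1 and 0.56 with vehicle, and Psmb9, a subunit of the immunoproteasome, had 0.33 with RvD1 and 0.52 with vehicle. Class I genes are close relatives, so their reads may have been split between them. Tnfsf14 (LIGHT, a TNF-family ligand) stood at 30.8 CPM in RvD1 recipient and 18.4 in RvD1 donor monocytes, with 45.7 in vehicle recipient and 18.9 in vehicle donor monocytes. The Tnfsf14 ratio was 0.75 (0.23 to 1.23) with RvD1 and 1.27 (0.80 to 1.74) with vehicle. Irf8, a factor that directs precursors to monocytes and dendritic cells, stood at 46.9 CPM in RvD1 recipient and 77.1 in RvD1 donor monocytes, with 41.4 in vehicle recipient and 63.7 in vehicle donor monocytes, lower in recipient cells of each treatment, with a ratio of -0.72 (-1.10 to -0.36) with RvD1 and -0.62 (-1.02 to -0.23) with vehicle. Traf1, a target of NF-kB, had a ratio of -0.63 with RvD1 and -0.87 with vehicle. Of 22 described glycolysis and hypoxia genes, 8 were below 0 in both treatments and 2 above, near the 33.8% and 17.6% of all genes. Cd36, a scavenger receptor for oxidised lipids, stood at 31.5 CPM in RvD1 recipient and 30.6 in RvD1 donor monocytes, with 17.7 in vehicle recipient and 66.7 in vehicle donor monocytes, so that the vehicle donor library lay above all others.

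Ratios of RvD1 over vehicle also moved with intron length, which is a property of the gene model. When the described genes were cut into 4 equal bins of intron bases, the bin with most had a median log2 ratio of -0.27 in recipient and -0.11 in donor cells, and the bin with fewest had 0.12 in recipient and 0.17 in donor cells. For recipient over donor, the bin with most had -0.18 with RvD1 and -0.06 with vehicle. The bin with fewest had -0.03 with RvD1 and 0.01 with vehicle. The part of intron length in the single-gene ratios was not tested. Of the 10 leading higher genes of RvD1 over vehicle, 5 fell in the bin with most intron bases and 5 in the bin with fewest. Of the 10 leading lower genes, 5 and 3 did. Among the lower genes, Setbp1 has 349059 intron bases, Nlrc5 84424, Mt2 317 and Thbd 0. Among the higher ones, Socs6 has 250909, Grk5 199165, Dpep2 2569 and Hist1h1c 0. Nonclassical monocytes of the same libraries give values for 5 of these genes, without a test. There, the log2 ratio of Nlrc5 was -1.16 in recipient and -1.11 in donor cells, and that of Dpep2 was 1.58 in recipient and 1.54 in donor cells. Thbd had 0.20 in recipient and -0.59 in donor nonclassical monocytes, Grk5 had -0.11 and -0.38, and Mt2 had -0.70 and 0.94, in the same order of cells. These share libraries and software with the classical monocytes.

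The MHC class II genes had opposite orders in the 2 origins, and a minority of cells carried them. H2-Ab1, a chain of the class II molecule, stood at 791 CPM in RvD1 recipient and 360.4 in RvD1 donor monocytes, with 263 in vehicle recipient and 882 in vehicle donor monocytes. The RvD1 recipient and vehicle donor libraries lay high and the other pair low. Its log2 ratio of RvD1 over vehicle was 1.59 (1.43 to 1.75) in recipient and -1.29 (-1.36 to -1.22) in donor cells. Cd74, the invariant chain, stood at 2408 CPM in RvD1 recipient and 1077 in RvD1 donor monocytes, with 1043 in vehicle recipient and 2558 in vehicle donor monocytes. The Cd74 ratio was 1.21 in recipient and -1.25 in donor cells. Ciita, the transactivator of class II genes, stood at 32.1 CPM in RvD1 recipient and 11.7 in RvD1 donor monocytes, with 17.1 in vehicle recipient and 38.8 in vehicle donor monocytes. Cells with at least 3 UMIs of H2-Aa, H2-Ab1 and H2-Eb1 at a depth of 2000 UMIs, a limit set after the data had been seen, made up 18.4% (23 of 125, 12 to 26.3) of RvD1 recipient, 9.38% (47 of 501, 6.97 to 12.3) of RvD1 donor, 9.82% (11 of 112, 5.01 to 16.9) of vehicle recipient and 23.6% (64 of 271, 18.7 to 29.1) of vehicle donor monocytes. They held 95.8%, 94.1%, 88.8% and 97.7% of the class II UMIs in the same order. Few cells lay near the limit: 4, 8, 3 and 7 had 2 UMIs, and 1, 3, 0 and 5 had 3.

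**Figure D5:**
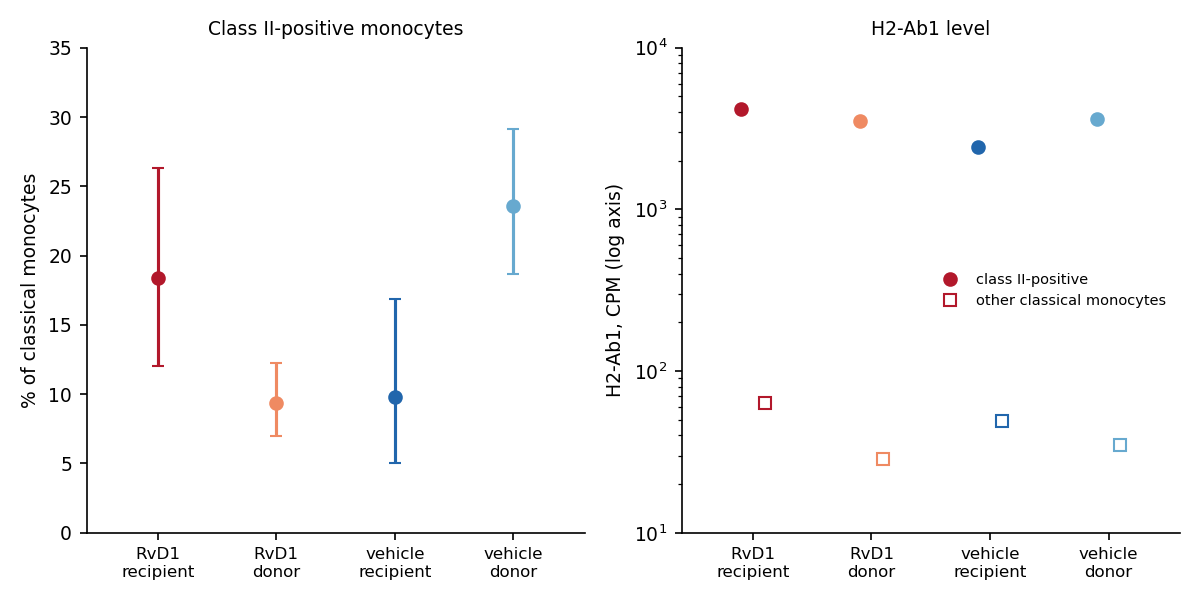
Left, share of classical monocytes positive for MHC class II genes in each library (y axis in percent, bars are exact 95% intervals); right, H2-Ab1 CPM on a log axis in positive cells (filled circles) and other classical monocytes (open squares). The share is highest in vehicle donor cells at 23.6% and RvD1 recipient cells at 18.4%, while the H2-Ab1 level within positive cells lies between 2445 and 4152 CPM.

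Values of genes that did not define the positive cells are given for those cells and, after "against", for the other classical monocytes, as a description. Ly6c2 was at 816 against 991 CPM in RvD1 recipient, 327 against 856 CPM in RvD1 donor, 790.1 against 1131 CPM in vehicle recipient and 634 against 998 CPM in vehicle donor cells. Vcan was at 331 against 965 CPM in RvD1 recipient, 594 against 1693 CPM in RvD1 donor, 184 against 1074 CPM in vehicle recipient and 537 against 1107 CPM in vehicle donor cells, lower in the positive cells of every library. The monocyte gene Csf1r was at 410 against 310 CPM in RvD1 recipient and 330 against 317 CPM in RvD1 donor cells. With vehicle, Csf1r was at 395 against 329 CPM in recipient and 362 against 393 CPM in donor cells. Lyz2 was at 17459 against 17324 CPM in RvD1 recipient and 12196 against 16182 CPM in RvD1 donor cells. With vehicle, Lyz2 was at 12062 against 18558 CPM in recipient and 11469 against 14844 CPM in donor cells. Cd209a, a lectin of dendritic cells and their precursors, was at 97.8 against 17.9 CPM in RvD1 recipient, 56.3 against 4.42 CPM in RvD1 donor, 149.8 against 12 CPM in vehicle recipient and 50.2 against 13.6 CPM in vehicle donor cells. Flt3, the dendritic cell growth factor receptor, was at 52.7 against 26.9 CPM in RvD1 recipient, 39.3 against 23.1 CPM in RvD1 donor, 27.2 against 13.4 CPM in vehicle recipient and 39.4 against 18.7 CPM in vehicle donor cells. Cd209a was higher in the positive cells of every library, but few cells carried it. Of all classical monocytes, without thinning, 7.94%, 3.18%, 4.46% and 12.9% had a UMI of Cd209a, libraries in the same order. For Flt3 the log2 ratio of positive over other cells was 0.77 (0.15 to 1.33) in RvD1 donor and 1.07 (0.46 to 1.67) in vehicle donor cells, whereas in recipient positive cells it rests on 14 UMIs with RvD1 (interval -0.05 to 1.91) and 4 with vehicle (-0.98 to 2.60), and both intervals hold 0. Median depths were close, between 11890 and 14856.5 UMIs in positive and between 11899 and 15523.5 UMIs in other cells. Since H2-Aa and other class II genes defined the positive cells, a change in class II ratios without these cells follows from how they were chosen. The values are therefore a description only. Without the positive cells, the log2 ratio of H2-Aa between the donor libraries was 0.13, against -1.33 with them. The list median of class II genes was then 0.32 in recipient and -0.04 in donor cells, against 0.80 in recipient and -1.15 in donor cells with them. The 9 dendritic cell markers summed to 203 against 61.1 CPM in RvD1 recipient, 255 against 41.0 CPM in RvD1 donor, 232 against 46.9 CPM in vehicle recipient and 156 against 50.7 CPM in vehicle donor cells, higher in the positive cells of every library. Mgl2, a lectin of type 2 dendritic cells, was at 15 against 0.815 CPM in RvD1 recipient, 77.2 against 0.691 CPM in RvD1 donor, 0 against 0.669 CPM in vehicle recipient and 4.92 against 1.21 CPM in vehicle donor cells. Zbtb46, a transcription factor of dendritic cells, was at 0 against 0 CPM in RvD1 recipient, 19.6 against 0.829 CPM in RvD1 donor, 0 against 0 CPM in vehicle recipient and 16.7 against 2.11 CPM in vehicle donor cells. Few cells carried either gene. Of all classical monocytes, without thinning, 2.38%, 1.19%, 0.893% and 2.95% had a UMI of Mgl2, libraries in the same order. For Zbtb46 these shares were 0%, 1.79%, 0% and 2.58%. Ccl17, a chemokine of dendritic cells that is not on that list, was at 3.76 against 0 CPM in RvD1 recipient, 325 against 0.967 CPM in RvD1 donor, 0 against 0 CPM in vehicle recipient and 81.7 against 1.51 CPM in vehicle donor cells, with a single UMI over both recipient libraries. Xcr1, Ccr7, Siglech and Itgae stayed under 10 CPM in the positive cells of every library. The part of dendritic cells in these values was not tested.

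Among cells of the same library, thinned to 2000 UMIs, the most variable genes were Cd74, Fth1, Cxcl2, H2-Aa, Lyz2, H2-Ab1, Slpi, H2-Eb1, Il1b and Apoe, ranked by the lowest of the 4 libraries' ratios of variance to mean. For Cd74 this ratio was 21.1 in RvD1 recipient and 21.0 in RvD1 donor monocytes, with 14.1 in vehicle recipient and 14.9 in vehicle donor monocytes, and for Cxcl2, another neutrophil attractant, 8.40 in RvD1 recipient and 18.7 in RvD1 donor monocytes, with 43.8 in vehicle recipient and 18.6 in vehicle donor monocytes. Cxcl2 had a UMI in 29.6% of RvD1 recipient, 26.1% of RvD1 donor, 33.0% of vehicle recipient and 30.3% of vehicle donor monocytes, against 3.10%, 4.78%, 2.78% and 3.52% of B cells, so that about the same share of cells carried it in each library. Il1b had a UMI in 64.0% of RvD1 recipient, 52.1% of RvD1 donor, 58.9% of vehicle recipient and 69.7% of vehicle donor monocytes. Hmox1 had one in 18.4% of RvD1 recipient, 23.2% of RvD1 donor, 42.9% of vehicle recipient and 36.5% of vehicle donor monocytes, against 0.282%, 0%, 0.464% and 3.81% of B cells, lower in both RvD1 libraries, as its CPM was. Without thinning these shares of monocytes were 40.5% of RvD1 recipient, 58.1% of RvD1 donor, 73.2% of vehicle recipient and 71.6% of vehicle donor cells. Across cells, as a description, Cxcl2 and Il1b had a Pearson r of 0.37 (125 cells) in RvD1 recipient and 0.47 (501 cells) in RvD1 donor monocytes, with 0.29 (112 cells) in vehicle recipient and 0.35 (271 cells) in vehicle donor monocytes, all at 1 depth. Of the 20 most variable genes, 17 were also among the 20 at 3000 UMIs.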

How the data were processed

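The deposited matrices hold raw UMI counts per gene and barcode, 1 matrix per library, aligned by the authors to mm10 with Cell Ranger, and Seurat 4.0.0 is also named, per the submitters' processing notes. The software versions come from the file headers, and nothing used here says whether intronic reads were counted. Each matrix lists 32285 genes, of which 38 symbols are used by more than 1 identifier and were counted per identifier. No step of the authors beyond this, doublet removal included, is stated in the sources used here.

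Cells needed 200 or more genes and no more than 10% of mitochondrial UMIs, and the rule for classical monocytes was applied to raw counts. UMIs were summed per library over the chosen cells, and CPM was taken over the sum of those cells. Intervals are exact Poisson for CPM, exact binomial for ratios and Clopper-Pearson for shares, all at 95%, and cover counting error only. A gene was described in a comparison with at least 100 UMIs over its libraries. For a ratio, a library without any UMI of the gene was given a count of 3 as the floor, and all other counts were kept. Genes used by the rule stayed out of counts and medians. The calculation of ratios and intervals was also run on simulated Poisson counts with known folds. These counts held no spread between cells or libraries, so the run cannot speak to that spread in the data. Gene positions and intron lengths come from GENCODE M21 on GRCm38, and the promoter sequences from RefSeq.

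The named genes were the 10 higher and 10 lower per comparison with the largest smaller ratio of its 2 contrasts, at least 1.5-fold in both and also without the cell holding most of a gene's UMIs, up to 4 genes of each list, the 15 leading genes and the 20 most variable ones. Eif2ak2, Isg15, Irf7, Oas1a, Nfe2l2, F10, Cd14, Cd209a, Mgl2, Zbtb46 and Ccl17 fall outside this and were chosen after their values were seen. A few genes that the rule names are not reported here. The members and the 26 gene lists (646 symbols, of which 637 were found) were chosen with earlier results of these data known. Doublets were kept; the rule leaves out cells with a UMI of Cd3e, Cd79a or Ncr1 but not those with other T, B or NK cell transcripts. Scrublet, with an assumed rate of 0.8% per 1000 cells, marked between 1.49% and 3.35% of the cells of a library and served as an alternative. Python 3.11.15, numpy 2.4.6, scipy 1.17.1, pandas 2.3.3, scanpy 1.11.5 and matplotlib 3.10.9 were used.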

Additional observations from a re-analysis of the deposited data

Results flagged for a closer look

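In 7 genes the ratio of RvD1 over vehicle had opposite signs in the 2 origins, each at least 1.5-fold; the difference between the origins was not tested, since each origin has 1 library per treatment. The class II gene H2-Ab1 had a log2 ratio of 1.59 in recipient and -1.29 in donor cells, H2-Aa of 1.45 in recipient and -1.33 in donor cells, H2-Eb1 of 1.5 in recipient and -1.15 in donor cells, and Cd74, the invariant chain, of 1.21 in recipient and -1.25 in donor cells. Serpinb2, an inhibitor of plasminogen activators, had 1.30 in recipient and -0.73 in donor cells. C3, the central complement component, had -0.81 in recipient and 0.76 in donor cells. Ptger2, a receptor of prostaglandin E2, had -0.83 in recipient and 0.84 in donor cells.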

How the results depend on the processing

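No paired analysis was possible because each group has 1 library and the replicate numbers only name the samples; for the same reason no replicate could be left out. Of 12 genes at least 2-fold higher with RvD1 in both origins and 21 lower, the counts were 22 and 43 at a minimum of 50 UMIs, 5 and 6 at a minimum of 200 UMIs, 143 and 234 with no minimum, and 0 and 0 with every cell thinned to 2000 UMIs before the rule, where 334 genes could be described. Of 1 gene at least 2-fold higher in recipient cells in both treatments and 5 lower, the counts were 4 and 24 at 50 UMIs, 156 and 129 with no minimum, and 0 and 0 thinned, where 507 genes could be described. The lower count was 2 at 200 UMIs, and the higher count was 2 with median-of-ratios size factors and 2 without doublets. Without monocytes above 20000 UMIs the counts were 0 higher and 2 lower. An alternative chosen after seeing the data left out the monocytes positive for MHC class II genes, and the lower count was then 1. Thinning before the rule gave shares of 0.704%, 5.04%, 1.06% and 1.94% in RvD1 recipient, RvD1 donor, vehicle recipient and vehicle donor libraries, and a minimum of 2 UMIs of Ccr2 and Ly6c2 gave 8.82% in RvD1 donor and 3.98% in vehicle donor libraries. Among single genes at least 1.5-fold apart with an interval clear of 0, and list medians of that size, signs turned in 4 values: Ccl4 in donor cells was -0.12 without doublets, and without the class II-positive cells H2-Aa of RvD1 over vehicle in donor cells was 0.13, while with vehicle the recipient over donor ratios of H2-Ab1 and H2-Aa were 0.48 and 0.39. The positive cells were chosen on class II genes, H2-Aa and H2-Ab1 among them, so the turns in these genes follow from leaving those cells out. The cause of the turn in Ccl4 was not tested. Of all 104 list medians, 48 changed sign under at least 1 alternative, 30 of them other than by thinning, the largest of these 30 being 0.20 in size. Thinning before the rule left 3 or 4 genes in the following lists and gave medians of RvD1 over vehicle of -0.14 for chemokine ligands in donor cells (0.54 before), 0.48 for pattern recognition receptors in recipient cells (-0.21 before), and for TNF and NF-kB genes 0.17 in recipient (-0.15 before) and 0.01 in donor cells (-0.35 before). Of the list medians over all alternatives, 886 stayed within the order-statistic 95% interval of the median over the list's genes (their range, under 6 genes) and 42 moved beyond it; of the values of single named genes, 3506 stayed within their counting interval and 233 moved beyond it, and 57 in all changed sign. The smallest libraries by monocyte UMIs, both recipient ones, limit the genes that could be described.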
